A study of Mus musculus with 15 samples.

Results

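The circadian clock genes described here are 10 genes, namely Per1, Per2, Per3, Cry1, Cry2, Arntl, Clock, Nr1d1, Nr1d2 and Dbp. They were chosen by name from the 54232 genes of a table of read counts, and all 10 were found. All 10 also passed the filter on low counts, as did 22151 genes in all, so no member was lost from the tests. The RNA came from the secondary palate, the roof of the mouth, of wild-type mice. The 15 libraries fall into 5 groups of 3, taken at the embryonic stages E13.5, E14.5, E15.5 and E16.5 and on the day of birth (P0). All groups share the wild-type genotype, no treatment is named in their labels, and each library holds 3 palates in 1 pool. The clock time at which tissue was collected is not given in the sources used here, so stage and time of day cannot be told apart in any comparison below. P-values measure the spread between such pools.

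The mammalian clock is a transcriptional feedback loop that runs in nearly every adult cell. ARNTL (also called BMAL1) and CLOCK bind as a pair to E-box sequences and switch on the Per and Cry genes, whose proteins return to the nucleus and repress that pair. A second loop runs through the nuclear receptors NR1D1 and NR1D2 (REV-ERB alpha and beta), which repress Arntl, while DBP is an output factor that acts through D-box sequences. In adult tissues the transcripts of Dbp and Nr1d1 are among those that swing most widely over the day, and many embryonic tissues acquire such rhythms only late in gestation. Per1 and Per2 also answer acutely to glucocorticoids and to cyclic AMP signalling.

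The promoter windows are shown for the 3 members with the largest difference between P0 and E13.5 (Per1, Nr1d1 and Nr1d2) and for 2 that did not pass the test there but carry 2 matches each (Cry1 and Per3). Each is the 250 bases before an annotated start, from the RefSeq promoter table on GRCm38.p6, read 5′ to 3′ on the gene's own strand. Capitals mark matches, on either strand, to the E-box CACGTG, its variant CACGTT, the D-box TTATGTAA, the half-site AGGTCA bound by REV-ERB and ROR receptors, or the cyclic AMP element TGACGTCA. No matches overlapped.
Per1, chr11:69098699-69098948, plus strand: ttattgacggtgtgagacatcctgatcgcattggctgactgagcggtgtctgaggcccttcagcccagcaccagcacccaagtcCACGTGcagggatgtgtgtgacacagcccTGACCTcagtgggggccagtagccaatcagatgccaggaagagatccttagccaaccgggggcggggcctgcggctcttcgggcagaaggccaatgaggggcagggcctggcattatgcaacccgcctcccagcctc
Nr1d1, chr11:98775378-98775627, minus strand: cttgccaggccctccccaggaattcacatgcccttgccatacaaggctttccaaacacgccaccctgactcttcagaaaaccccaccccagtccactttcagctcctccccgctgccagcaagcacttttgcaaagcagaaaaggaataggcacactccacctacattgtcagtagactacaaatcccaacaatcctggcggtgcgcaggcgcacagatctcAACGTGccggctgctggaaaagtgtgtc
Nr1d2, chr14:18239107-18239356, minus strand: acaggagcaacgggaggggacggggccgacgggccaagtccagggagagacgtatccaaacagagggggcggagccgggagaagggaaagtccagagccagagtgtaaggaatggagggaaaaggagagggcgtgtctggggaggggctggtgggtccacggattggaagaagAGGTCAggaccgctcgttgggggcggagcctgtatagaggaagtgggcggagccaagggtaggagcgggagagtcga
Cry1, chr10:85185055-85185304, minus strand: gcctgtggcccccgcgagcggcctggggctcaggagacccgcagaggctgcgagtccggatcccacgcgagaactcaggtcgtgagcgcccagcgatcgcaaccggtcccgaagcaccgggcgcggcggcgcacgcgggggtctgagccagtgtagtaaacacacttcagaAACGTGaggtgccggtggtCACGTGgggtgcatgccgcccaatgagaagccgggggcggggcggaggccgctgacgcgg
Per3, chr4:151044666-151044915, minus strand: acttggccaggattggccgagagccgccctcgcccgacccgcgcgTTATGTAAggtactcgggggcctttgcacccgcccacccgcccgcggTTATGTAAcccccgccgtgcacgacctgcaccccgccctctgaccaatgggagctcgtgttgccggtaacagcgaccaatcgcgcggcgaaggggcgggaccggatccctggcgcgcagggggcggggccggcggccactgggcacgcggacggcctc

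The table held 13 windows of 300 bases (250 before to 50 after the start) for 9 members, and Per2 had no entry. The E-box CACGTG lay in 2 of these 13 windows, those of Per1 (1 of its 2 windows) and Cry1, against 7.15% of all 32851 windows. The variant CACGTT lay in 3 of the 13 windows (Cry1, Cry2 and Nr1d1), against 4.68%. The D-box TTATGTAA lay in 1 of the 13 windows, at 2 places in Per3, against 0.938%. The half-site AGGTCA lay in 4 of the 13 windows (1 each of Per1, Arntl, Clock and Nr1d2), against 16.3%, and the cyclic AMP element TGACGTCA in none, against 1.79%. The Dbp window held no match to any of the 5 motifs. A match describes the letters only, and its absence says only that those letters are not in this window.

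Depth ranged from 21.5 M to 69.0 M counted fragments per library, with a median of 61.0 M and the lowest total in P0 replicate 3. CPM are counts per 1e+06 counted fragments of tested genes, with each library's total multiplied by its TMM factor (trimmed mean of M values). A level of 3 counts, taken as the floor of detection, stood at 0.0421 to 0.131 CPM. Counts of the members per library ran from 154 (Nr1d1) to 7184 (Per1), all far above that floor. The 7 palate mesenchyme markers summed to 184 to 812 CPM, whereas the 3 liver markers summed to at most 1.53 CPM. In bulk tissue, fewer cells of a type and less RNA per cell cannot be told apart. Markers of choroid plexus and brain, a tissue outside the palate, summed to 1438 CPM and 727 CPM in E14.5 replicates 1 and 3, against 7.99 to 381 CPM elsewhere. Summed Y-linked transcripts stood at 0.151 to 0.332 CPM in all 3 E16.5 libraries, whereas the highest library of each other stage reached 130 to 190 CPM. The lowest library of E13.5, E15.5 and P0 stood at 0.337 to 0.457 CPM, near the E16.5 level. The part of sex in contrasts with E16.5 was not tested.

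**Figure D1:**
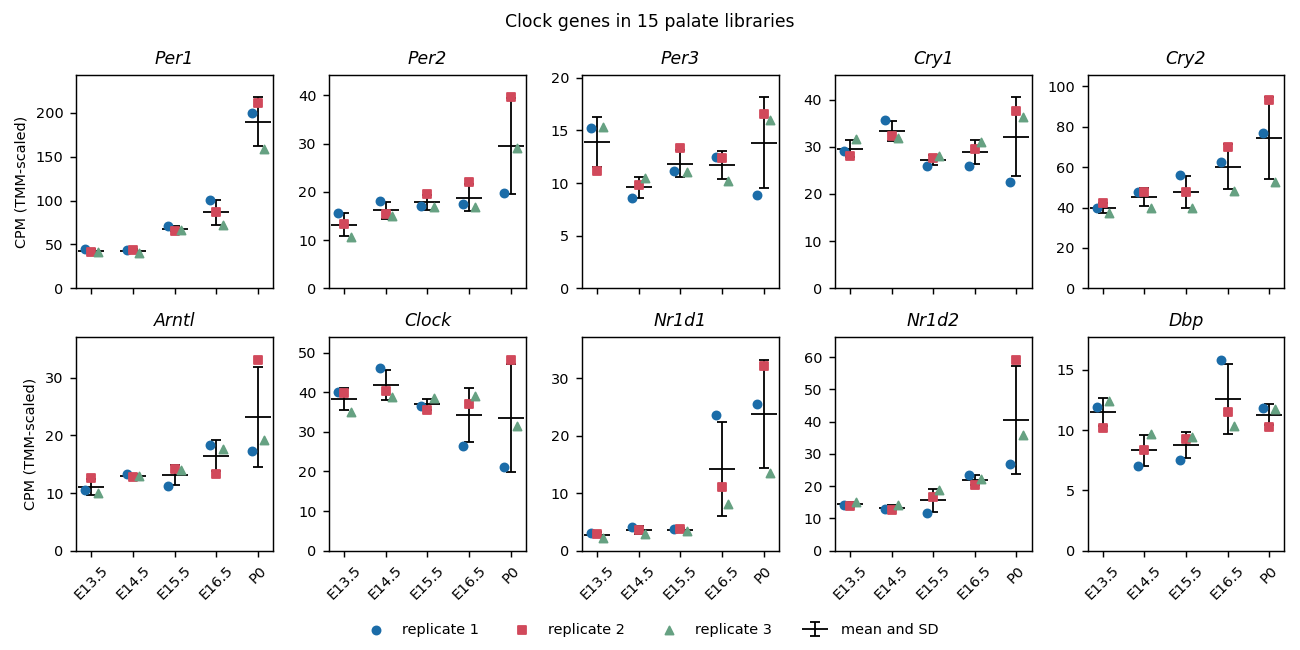
Level of each clock gene in CPM after TMM scaling (trimmed mean of M values) by stage, with linear axes that start at 0 and differ between genes. Points are the 3 libraries of a stage, and black lines are the mean and SD. Per1 in every E15.5, E16.5 and P0 library lay above all E13.5 and E14.5 libraries, and Nr1d1 was near its lowest level until E15.5.

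Per1, a repressor of the loop that hormones and other stimuli also induce directly, had the highest level of the 3 Per genes. The gene (ENSMUSG00000020893.17) lies at chr11:69095217-69109960 on the plus strand of GRCm38, the build of all positions here. Its level stood at 45.2, 41.5 and 41.4 CPM at E13.5 and at 44.0, 44.3 and 40.4 CPM at E14.5. The E15.5 libraries held 71.4, 65.7 and 66.9 CPM, the E16.5 libraries 100.4, 86.5 and 72.7 CPM, and the P0 libraries 199, 212 and 159 CPM. The E13.5 and E14.5 libraries overlapped, and each later stage lay wholly above the one before it. By edgeR's quasi-likelihood test with Benjamini-Hochberg adjustment over all tested genes, Per1 rose by 0.67 ± 0.13 (log2 fold change ± SE) from E14.5 to E15.5 (adjusted p = 0.00437). It rose by 1.13 ± 0.13 from E16.5 to P0 (adjusted p = 0.00415). From E13.5 to P0 it rose by 2.15 ± 0.13, a 4.45-fold difference (adjusted p = 1.46e-06). The step from E15.5 to E16.5 measured 0.35 ± 0.13 (adjusted p = 0.15). Without both E14.5 libraries high in choroid plexus markers, the E14.5 to E15.5 difference kept its size (0.66) but not its call (adjusted p = 0.109), with a lone E14.5 library assumed to vary like the other groups. In a fit of only the 6 libraries of E16.5 and P0, the difference was 1.17 with an adjusted p of 0.671.

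Per2, another repressor of the loop (ENSMUSG00000055866.9, chr1:91415982-91459324, minus strand), measured 15.5, 13.3 and 10.7 CPM at E13.5 and 19.9, 39.6 and 29.0 CPM at P0. All P0 libraries lay above all E13.5 libraries, but P0 replicate 1 fell within the 16.9 to 22.0 CPM seen at E15.5 and E16.5. Per2 rose by 1.16 ± 0.23 on the log2 scale from E13.5 to P0 (edgeR adjusted p = 0.00097), and none of its 4 steps between successive stages passed. Per3, which is dispensable for the core loop (ENSMUSG00000028957.12, chr4:151003652-151044665, minus strand), stood between 8.54 and 16.6 CPM in all 15 libraries. Its E13.5 libraries held 15.2, 11.2 and 15.3 CPM and its P0 libraries 8.88, 16.6 and 16.02 CPM, so these groups overlapped fully. The Per3 difference from E13.5 to P0 was -0.01 ± 0.23 (edgeR adjusted p = 0.975). Its gene body lies on the same strand within that of Camta1, and, per the file header, fragments touching exons of both were not set to be counted.

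The cryptochromes, partners of the PER proteins in repression, differed from each other. Cry2 (ENSMUSG00000068742.11, chr2:92403646-92434043, minus strand) measured 39.6, 42.2 and 37.5 CPM at E13.5 and 77.0, 93.0 and 52.8 CPM at P0, with no overlap between these stages. It rose by 0.90 ± 0.20 on the log2 scale, a 1.87-fold difference (edgeR adjusted p = 0.00228). Cry1 (ENSMUSG00000020038.10, chr10:85131700-85185064, minus strand) measured 29.0, 28.1 and 31.5 CPM at E13.5 and 22.5, 37.5 and 36.3 CPM at P0. Its P0 libraries lay on both sides of the E13.5 range, with replicate 1 the lowest of all 15. The Cry1 difference was 0.12 ± 0.17 (edgeR adjusted p = 0.558), and without P0 replicate 1 it was 0.36 (adjusted p = 0.0195). Whether the Cry1 and Cry2 differences differ was not tested.

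Arntl, the activator (ENSMUSG00000055116.8, chr7:113207465-113314126, plus strand), measured 10.5, 12.6 and 9.98 CPM at E13.5 and 17.3, 33.1 and 19.1 CPM at P0. The P0 libraries all lay above the E13.5 libraries, and P0 replicate 2 was the highest of all 15. Arntl rose by 1.07 ± 0.23 on the log2 scale, a 2.1-fold difference (edgeR adjusted p = 0.00173). Clock, its partner (ENSMUSG00000029238.11, chr5:76209868-76304792, minus strand), measured 40.1, 39.7 and 35.1 CPM at E13.5 and 21.2, 48.2 and 31.4 CPM at P0. The 3 P0 pools therefore spanned a wider range than all other Clock libraries, which ran from 26.4 to 46.0 CPM. The Clock difference from E13.5 to P0 was -0.19 ± 0.24 (edgeR adjusted p = 0.51). It was -0.52 without P0 replicate 2 (adjusted p = 0.0392) and 0.10 without P0 replicate 1 (adjusted p = 0.691), so no direction can be given.

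Nr1d1, the REV-ERB alpha repressor of Arntl, had the largest difference of the members between E13.5 and P0. The gene (ENSMUSG00000020889.11, chr11:98767932-98775333, minus strand) overlaps Thra on the opposite strand, and counting used the strand, per the file header. Nr1d1 stood at 3.05, 2.96 and 2.29 CPM at E13.5, at 4.21, 3.69 and 2.94 CPM at E14.5 and at 3.84, 3.74 and 3.38 CPM at E15.5. The E16.5 libraries held 23.5, 11.1 and 8.12 CPM and the P0 libraries 25.6, 32.1 and 13.6 CPM. Every E16.5 and P0 library lay above every earlier one, while E16.5 and P0 overlapped and their pools differed widely. Nr1d1 rose by 3.09 ± 0.40 on the log2 scale from E13.5 to P0, an 8.5-fold difference (edgeR adjusted p = 5.13e-05). It rose by 1.95 ± 0.38 from E15.5 to E16.5, a 3.88-fold difference (edgeR adjusted p = 0.0347). With 1 library removed at a time, that step passed once in 6 fits, when E16.5 replicate 3 was removed. That fit called 504 of all genes at this step and the others 0 to 78, against 312 with all libraries. The Nr1d1 step measured 1.37 without E16.5 replicate 1 (adjusted p = 0.126) and 1.90 to 2.11 without E16.5 replicate 2 or any E15.5 library (adjusted p = 0.0563 to 0.16). Fitted on the 6 libraries of both stages alone, it was 1.96 (adjusted p = 0.12). The step from E16.5 to P0 was 0.73 ± 0.37 (edgeR adjusted p = 0.465).

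Marker levels of other cell types moved with several members, Nr1d1, Per1 and Cry2 among them. The 6 skeletal muscle markers summed to 1775 to 4687 CPM at E15.5 and to 9409 to 23971 CPM at E16.5, with none at 0 in every library. Singly, their log2 fold changes at this step ran from 0.43 (Myod1) to 3.62 (Ckm), and none passed edgeR's test. E16.5 replicate 1 was the highest and replicate 3 the lowest of its stage for both the muscle sum and Nr1d1. P0 replicate 3 was the lowest of its stage for both, with a muscle sum of 4364 CPM against 19512 CPM and 23402 CPM in replicates 1 and 2. Within stages the correlation of Nr1d1 with the muscle sum was r = 0.454 over 15 libraries, with the endothelial sum r = 0.707, and with the palate mesenchyme sum r = -0.777. For Per1 the endothelial sum gave r = 0.757, the mesenchyme sum -0.675 and the epithelial sum -0.658, and for Cry2 the mesenchyme and epithelial sums gave -0.716 and -0.726. Across stages, the 5 osteoblast markers summed to 973 to 2138 CPM at E14.5 and to 13577 to 15937 CPM at E15.5, the step at which Per1 first passed, with a within-stage r of -0.187 with Per1. Col1a1 made up most of this sum, with 6953988 counts over all libraries against 547291 for Ibsp, the next highest. Per2 had a within-stage r of -0.818 with the osteoblast sum and -0.764 with the macrophage sum. The choroid plexus and brain sum gave r = 0.698 for Cry1 and 0.675 for Nr1d2, against 0.027 for Nr1d1 and 0.008 for Dbp. At P0 that sum was 7.99, 381 and 138 CPM in replicates 1, 2 and 3. The part of these cell types in the results was not tested.

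Nr1d2, the REV-ERB beta gene (ENSMUSG00000021775.11, chr14:18204054-18239127, minus strand), measured 14.2, 13.8 and 15.2 CPM at E13.5 and 23.4, 20.4 and 22.1 CPM at E16.5. The P0 libraries held 26.8, 59.2 and 35.7 CPM, all above every earlier library. Nr1d2 rose by 1.49 ± 0.25 on the log2 scale from E13.5 to P0, a 2.81-fold difference (edgeR adjusted p = 0.000321). Its steps were 0.49 ± 0.24 into E16.5 and 0.88 ± 0.25 into P0, neither past the threshold (edgeR adjusted p = 0.263 and 0.165). Dbp, the output factor (ENSMUSG00000059824.12, chr7:45705088-45710203, plus strand), stayed within 6.99 to 15.8 CPM in all 15 libraries. Its E13.5 libraries held 11.9, 10.2 and 12.4 CPM, its E14.5 libraries 6.99, 8.31 and 9.63 CPM, and its P0 libraries 11.8, 10.3 and 11.7 CPM. The E14.5 libraries lay below all of E13.5 and P0, and E13.5 and P0 overlapped. The Dbp difference was -0.47 ± 0.19 from E13.5 to E14.5 (edgeR adjusted p = 0.263), 0.52 ± 0.19 from E15.5 to E16.5 (adjusted p = 0.143) and -0.03 ± 0.19 from E13.5 to P0 (adjusted p = 0.91).

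**Figure D2:**
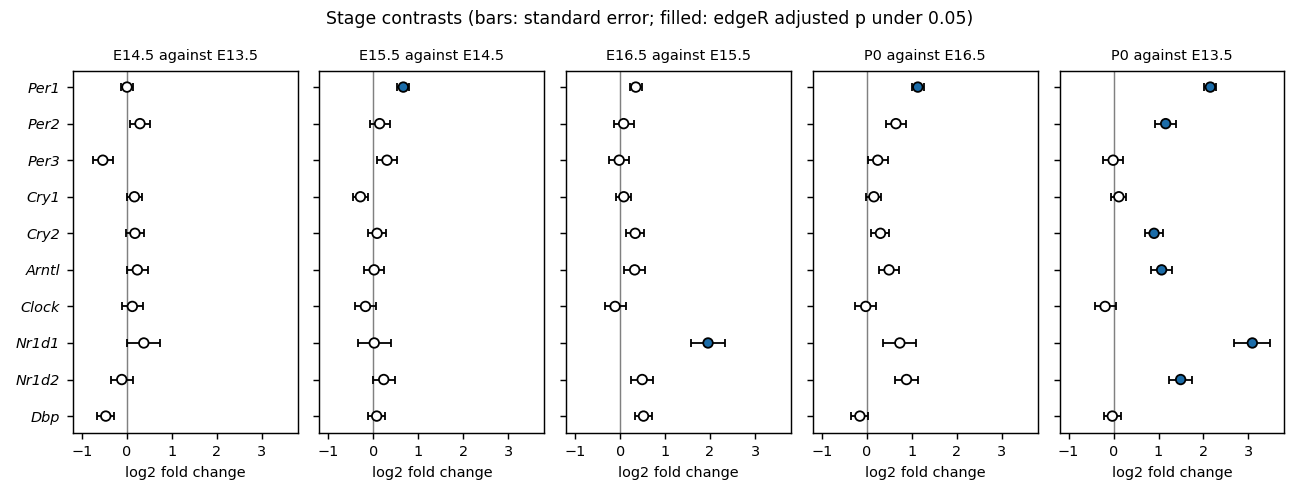
Log2 fold change of each clock gene in 5 stage contrasts, with bars for the standard error and filled points for an edgeR adjusted p under 0.05. The P0 against E13.5 panel holds 6 filled points, all to the right of 0, and the step panels hold 0, 1, 1 and 1.

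Counted over the members, 6 of 10 passed the test between E13.5 and P0, all higher at P0, where 56.6% of all tested genes passed and 29.8% passed as higher. The share of members that passed was thus near that of all genes. The median log2 fold change of the 10 members was 0.98, against 0.03 over all tested genes. From E13.5 to E14.5, 0 of 10 members passed edgeR's test, where 0.00903% of genes passed. In that test 2 members (Per3 and Dbp, both lower) had an unadjusted p under 0.05, as did 3538 of all 22151 tested genes. DESeq2 also called 0 members, where it called 2.52% of genes. From E14.5 to E15.5, 1 of 10 passed (Per1) against 26.1% of genes, and the members' median was 0.08 against 0.03. From E15.5 to E16.5, 1 passed (Nr1d1) against 1.41%, with a median of 0.33 against 0.00. From E16.5 to P0, 1 passed (Per1) against 0.352%, with a median of 0.40 against 0.00. DESeq2 called 2 members in each of the last 2 steps, adding Dbp from E15.5 to E16.5 (5.4% of genes called) and Nr1d2 from E16.5 to P0 (1.7%). Over all 5 stages together, the same 6 members as between E13.5 and P0 passed, against 59.1% of genes. Comparisons that share a stage share its libraries.

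Levels of different genes were compared as CPM per kilobase of exon, with the deposited exon length of each gene as divisor. That length was 3340 bases for Cry1, 5631 for Per1 and 6320 for Cry2. The longest annotated transcripts of these genes hold 3026, 4671 and 3976 bases. The order of genes with close levels, and the size of the shares below, depend on this choice, and other lengths were not tried. At E13.5 Cry1 led with 8.85, followed by Per1 with 7.58, Cry2 with 6.29 and Dbp with 3.84, and the ranges of these neighbours did not overlap. Clock (2.79), Nr1d2 (2.66) and Per2 (2.25) followed, each overlapping the next. Arntl (1.47) and Per3 (1.45) overlapped, and Nr1d1 was lowest with 0.899 CPM per kilobase. Per1 took the lead at E15.5 with 12.1 and kept it apart from all others at E16.5 (15.4) and P0 (33.7). At P0 every other neighbouring pair overlapped, in the order Cry2 (11.8), Cry1 (9.61), Nr1d1 (7.72), Nr1d2 (7.50), Per2 (5.04), Dbp (3.77), Arntl (3.08), Clock (2.45) and Per3 (1.44). Nr1d1 was the last in order at E13.5 and the fourth at E16.5 and P0.

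Shares within groups of paralogs, and within the partners Arntl and Clock, were computed from the same per-kilobase levels and are given as description. Per1 made up 67.3% ± 1.60 (SD, n = 3) of the summed Per genes at E13.5 and 83.9% ± 4.54 at P0, and the libraries of these stages did not overlap. Per3 made up 12.8% ± 2.00 at E13.5 and 3.62% ± 1.23 at P0. Nr1d1 made up 25.2% ± 3.69 of the Nr1d pair at E13.5 and 50.5% ± 11.4 at P0. Arntl made up 34.4% ± 2.11 of the Arntl and Clock sum at E13.5 and 56.0% ± 3.63 at P0, again without overlap. That share rests on Clock, and with the GC and length offsets described at the end the log2 differences from E13.5 to P0 were 1.33 for Arntl and 0.72 for Clock, against 1.07 and -0.19 without them. Cry2 made up 41.6% ± 2.84 of the Cry pair at E13.5 and 54.9% ± 10.6 at P0, where 1 library (43.5%) overlapped the E13.5 range.

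**Figure D3:**
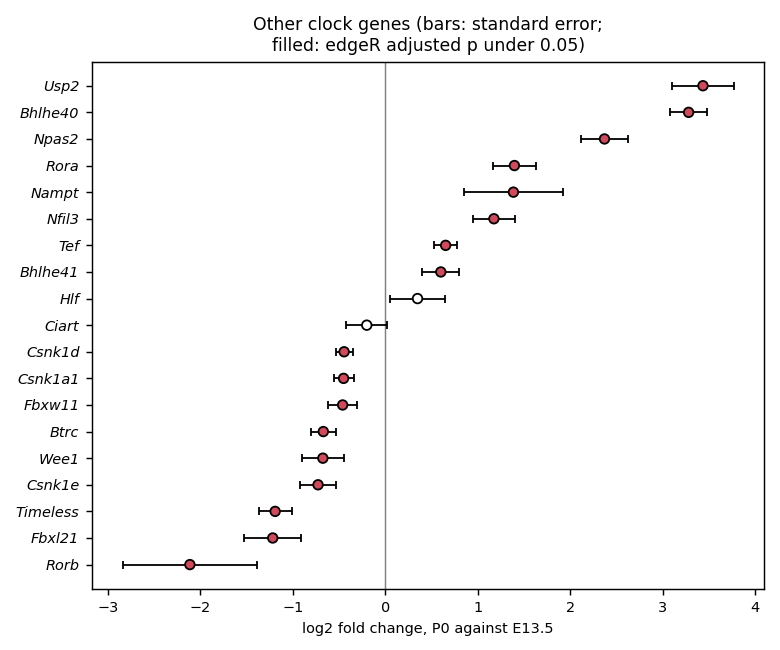
Log2 fold change from E13.5 to P0 of further clock genes, ordered by value, with bars for the standard error and filled points for an edgeR adjusted p under 0.05. Usp2 and Bhlhe40 lie at the top, Rorb lies at the bottom with a wide bar, and Ciart and Hlf are open.

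Of 21 further clock genes, 18 passed between E13.5 and P0, 9 higher and 9 lower, where 56.6% of all genes passed. Most of the genes named here that rose encode transcription factors. Bhlhe40 (DEC1), a repressor at E-boxes, went from 7.03 ± 0.203 CPM (SD, n = 3) to 68.6 ± 20.4 CPM (log2 fold change 3.28, edgeR adjusted p = 1.42e-06), and its relative Bhlhe41 rose by 0.60. Npas2, a paralog of Clock that can replace it as the partner of ARNTL, went from 2.89 ± 0.766 CPM to 15.1 ± 2.01 CPM (2.37, edgeR adjusted p = 1.56e-05). On the per-kilobase scale Npas2 made up 17.8% ± 4.74 of the Npas2 and Clock sum at E13.5 and 57.4% ± 7.49 at P0, without overlap, and this share rests on Clock in the same way. The ROR receptors, which activate Arntl at the half-site that REV-ERB also binds, did not move together, with Rora (1.40) higher and Rorb (-2.11) lower. Usp2, a deubiquitinase that acts on clock proteins, rose by 3.44 (edgeR adjusted p = 9.72e-06). The D-box factors Nfil3 and Tef rose by 1.18 and 0.65, and Nampt, an enzyme of NAD synthesis under clock control, rose by 1.39. Nampt rested on P0 replicate 2, whose level was 222 CPM against 55.7 and 42.3 CPM, and without that library its difference was 0.28 (adjusted p = 0.534).

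The further genes that fell included kinases and ubiquitin ligase subunits that act on clock proteins. The casein kinase genes Csnk1d, Csnk1e and Csnk1a1 fell by 0.44, 0.73 and 0.45 on the log2 scale. The ubiquitin ligase genes Fbxl21, Btrc and Fbxw11 fell by 1.22, 0.67 and 0.46. Timeless, which also acts at replication forks, fell by 1.19 (edgeR adjusted p = 0.000152), and Wee1, a kinase of the cell cycle, fell by 0.67. With GC and length offsets, described at the end, Csnk1a1, Btrc and Fbxw11 lost their calls (adjusted p = 0.578, 0.75 and 0.282), as did Rorb and Wee1. Csnk1a1, Fbxw11, Rorb, Wee1, Bhlhe41 and Nampt also missed the threshold when only the 6 libraries of both stages were fitted (adjusted p = 0.0563 to 0.0947). Several of the calls changed with single libraries. Rorb was lost without E13.5 replicate 2, P0 replicate 1 or P0 replicate 3 (adjusted p = 0.0742 to 0.14), and Fbxw11 without E13.5 replicate 1 or 2 or P0 replicate 3 (0.0573 to 0.0989). Bhlhe41 was lost without E13.5 replicate 1 or 2 (adjusted p = 0.0701 and 0.0968), Wee1 without E13.5 replicate 3 or P0 replicate 1 (0.0552 and 0.124), and Nampt also without any 1 of the E13.5 libraries (0.0888 to 0.101). From E14.5 to E15.5, 8 of the 21 passed (Npas2, Bhlhe40 and Usp2 higher, Rorb, Csnk1d, Csnk1e, Btrc and Fbxw11 lower), against 26.1% of genes. Without E14.5 replicate 1 this was 5, and without both E14.5 libraries high in choroid plexus markers it was 2. From E15.5 to E16.5, 2 passed, Bhlhe40 (1.04) and Usp2 (1.72), and each kept its call in 1 of 6 fits with 1 library removed, the fit lacking E16.5 replicate 3. That fit called 504 of all genes and the others 0 to 78.

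Lists for signals known to act on Per1 were also counted. Of 8 glucocorticoid response genes, 6 passed from E16.5 to P0, all higher, against 0.19% of genes that passed as higher, with a median log2 fold change of 1.04. Fkbp5, a chaperone induced by the glucocorticoid receptor, held 81.7 ± 21.2 CPM (SD, n = 3) at E16.5 and 166 ± 33.4 CPM at P0 (1.03, edgeR adjusted p = 0.0338). Tsc22d3 (GILZ) held 114 ± 17.7 CPM at E16.5 and 229 ± 15.2 CPM at P0 (1.01, edgeR adjusted p = 0.00415). Nr3c1, the receptor itself, did not pass and held 57.1 ± 4.30 CPM and 54.2 ± 23.8 CPM. Of 10 immediate early genes, which answer within minutes to stimuli and to tissue handling, 6 passed from E16.5 to P0, all higher, with a median of 1.24. Fos held 13.8 ± 1.69 CPM at E16.5 and 60.9 ± 33.4 CPM at P0 (2.13, edgeR adjusted p = 0.0338). Without E16.5 replicate 2 or without replicate 3, 2 glucocorticoid response genes and 1 immediate early gene passed, and without P0 replicate 2, 4 and 2. These fits called 10, 12 and 24 of all genes, in that order, against 78 with all libraries. Fitted on the 6 libraries of both stages alone, 0 genes of either list passed, and 0 of all genes did. From E13.5 to P0, 7 of 8 and 10 of 10 passed as higher, against 29.8% of genes, with medians of 1.52 and 2.78. From E14.5 to E15.5, the other step at which Per1 passed, 0 of 8 glucocorticoid response genes passed edgeR's test, against 26.1% of genes. Of the 8, 2 had an unadjusted p under 0.05 in that test, as did 8783 of all 22151 genes, and the median of the 8 was -0.05. DESeq2 called 2 of the 8, where it called 7146 of 37898 genes. Upper-quartile factors, a mean of at least 1 CPM, the 6 libraries alone, thinning, and the GC and length offsets each gave 2 as well. At the same step 4 of 10 immediate early genes passed, all higher, against 12.7% of genes that passed as higher. The part of either signal in the Per1 difference was not tested.

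**Figure D4:**
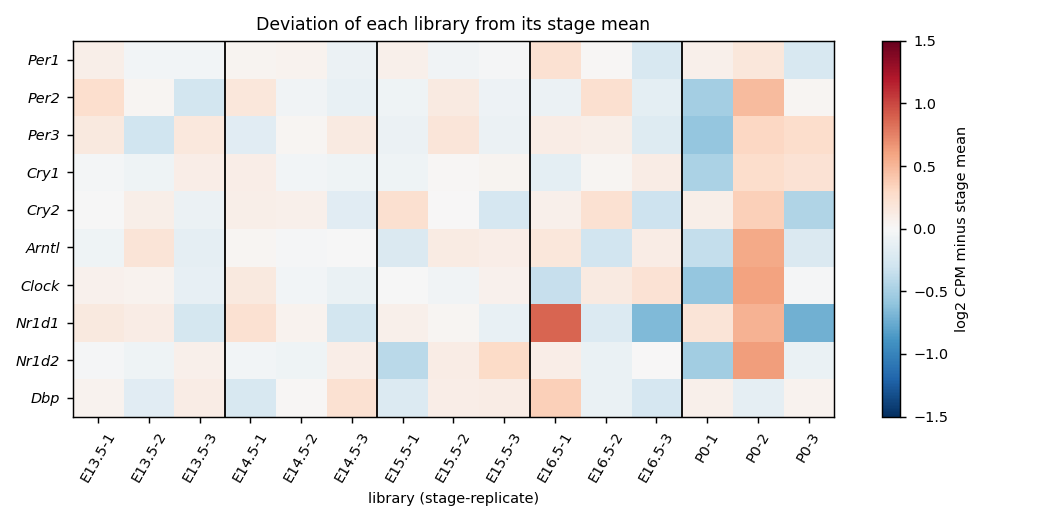
Deviation of each library from the mean of its stage, in log2 CPM, for the 10 clock genes. Red marks libraries above and blue libraries below their stage mean, and the palest columns are those of E13.5 to E15.5. P0 replicate 2 is above the mean for 9 of 10 members and P0 replicate 1 is below it for 6.

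Within stages the members did not move as 1 block. Over 45 pairs of members, the correlation of stage-centred log2 CPM ran from -0.598 to 0.942 with a median of 0.218, and 33 pairs were above 0. All pairs rest on the same 15 libraries and share their depth and scaling. Per1 and Nr1d1 had the highest value (0.942), followed by Arntl and Nr1d2 (0.840), Cry1 and Clock (0.826), Per2 and Clock (0.804) and Per1 and Cry2 (0.797). The lowest value was that of Clock and Dbp (-0.598). The single largest deviation was that of Nr1d1 in E16.5 replicate 1, 0.87 above its stage mean (log2). Among the P0 pools, replicate 1 lay 0.36 to 0.58 below the stage mean for Per2, Per3, Cry1, Arntl, Clock and Nr1d2. P0 replicate 2 lay above the mean for every member except Dbp. Every level was divided by the TMM scaling factor of its library, which corrects library composition. These factors moved with some members within stages, with r = -0.867 for Per1, -0.866 for Nr1d1 and -0.785 for Cry2 over 15 libraries. Their part in the pairs was not tested.

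The genes most like 3 members were taken by the same stage-centred correlation from 11847 genes with a mean of at least 10 CPM. For Nr1d1 they were Bscl2 (r = 0.989), Kcnk3, 2310061I04Rik and Spg7 (0.977), and 1 further gene of the 5 is not reported here. For Dbp they were Ctso (0.952), Abhd14b, Hsd17b11, Fam53a and Cytl1 (0.917). For Arntl they were Ptp4a1 (0.939), Ppp1r10, Mpp5, Eif5 and Tiparp (0.927). Ranked by Spearman's rho in place of Pearson's r, 1 of the 5 genes was shared for each of the 3 members.

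**Figure D5:**
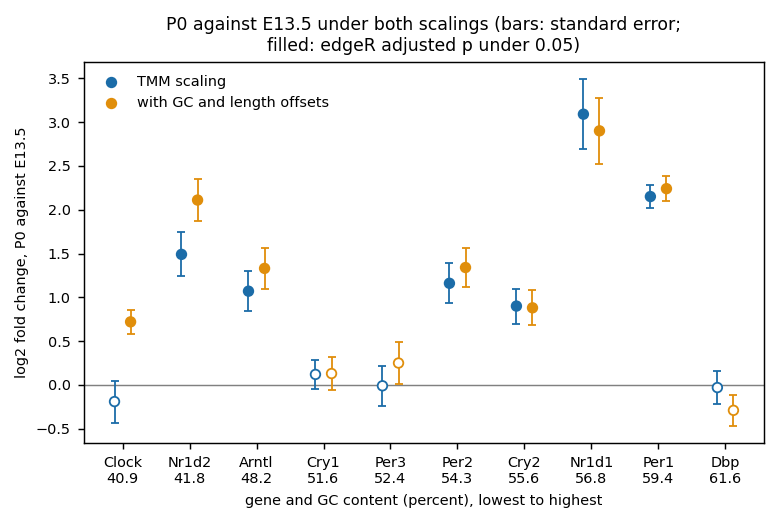
Log2 fold change from E13.5 to P0 of each clock gene with TMM scaling alone (blue) and with added offsets for GC content and transcript length (orange), ordered by the GC content printed under each name. Bars are standard errors, and filled points have an edgeR adjusted p under 0.05. Clock moved from -0.19 to 0.72, and the 6 genes filled in blue are also filled in orange.

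The base composition of transcripts also moved with stage. Over 11931 genes, the slope of log2 level on GC content, per 10 percentage points, was -0.196 at E13.5 and 0.217 at P0, each against the mean of all libraries. Within P0 it was 0.212 in replicate 1 and -0.161 in replicate 2, against their stage mean. Within E16.5 it was 0.149 in replicate 1 and -0.116 in replicate 3, against theirs. The members span this range, from Clock with 40.9% and Nr1d2 with 41.8% GC to Per1 with 59.4% and Dbp with 61.6%, where the median of tested genes was 49.5%. Level also followed transcript length, with a log2 slope per doubling of 0.149 at E13.5 and -0.226 at P0, against the same mean. Clock has the longest transcript of the members, 9744 bases against a median of 2814 for tested genes. The parts of GC content and length in the offsets were not separated. With offsets that remove the trends in GC content and transcript length, an alternative chosen after seeing the data, 7 of 10 members passed from E13.5 to P0, against 54.3% of all genes. The 6 called before were still called, with Per1 at 2.24, Nr1d1 at 2.90, Nr1d2 at 2.11, Per2 at 1.34, Arntl at 1.33 and Cry2 at 0.88. Clock turned from -0.19 to 0.72 ± 0.14 (edgeR adjusted p = 0.000898). Of the further clock genes, 15 of 21 passed with the offsets in place of 18, with 5 of the 9 called decreases lost and 2 genes gained. These were Csnk1a1 (0.05) and Btrc (0.07), which changed sign, and Fbxw11 (-0.18), Rorb (-1.27) and Wee1 (-0.53). Such offsets also remove any difference between stages that itself follows GC content or length, and which of the 2 values of Clock is nearer to the level in the tissue was not tested.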

How the data were processed

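Bulk RNA was sequenced from 15 pools of palates, 3 per stage. The authors deposited raw counts per gene, made with featureCounts 2.0.1 on the reverse strand with fragments of read pairs counted against GENCODE M18, per the file headers. The submitters' processing notes name cutadapt 3.4, HISAT2 2.2.1, SAMtools 1.12 and build mm10. Symbols were attached to 54079 of 54232 genes, and every member had the same position in GENCODE M18 and M21.

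Here, edgeR 4.0.16 (R 4.3.3) filtered genes with filterByExpr (minimum count 10), scaled counts by TMM, and fitted 1 coefficient per stage over all 15 libraries (prior count 2). P-values of the quasi-likelihood F test were adjusted by Benjamini-Hochberg over 22151 genes, with a threshold of 0.05. Each library's total was its depth, and the floor of 3 counts covers counting error only. Alternatives were DESeq2 1.42.0, other scalings and filters, the 6 libraries of a contrast, thinning to the smallest total, Spearman's rho for likeness, a replicate block, leaving out libraries, and, added after seeing the data, GC and length offsets and leaving out both E14.5 libraries with choroid plexus markers. The procedure was tested on simulated data.

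Named genes were every member, the further clock genes past the threshold, examples from the glucocorticoid and immediate early lists, and the 5 genes most like Dbp, Nr1d1 and Arntl. The members and lists were chosen with earlier results of these data known. A few genes of these lists are counted but not reported here by name or plotted.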

Additional observations from a re-analysis of the deposited data

How the results depend on the processing

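The 6 members called from E13.5 to P0 kept their direction and call in all 6 fits that left out 1 library and under every alternative run. With only the 6 libraries of a contrast, 2 members passed from E14.5 to E15.5 (Cry1 with Per1), 0 from E15.5 to E16.5 and 0 from E16.5 to P0, and 0 further clock genes from E15.5 to E16.5. At those last 2 steps that fit called 0 of all genes, with 4267 and 1129 at an unadjusted p under 0.05. DESeq2 called 2 members at each of those steps, 2 further clock genes from E13.5 to E14.5 and 4 from E15.5 to E16.5. Without both E14.5 libraries high in choroid plexus markers, 0 members and 2 further clock genes passed from E14.5 to E15.5. With GC and length offsets, 2 further clock genes passed from E16.5 to P0. Leaving out 1 library gave 0 to 1 members and 0 to 2 further clock genes from E15.5 to E16.5, and 5 to 9 further clock genes from E14.5 to E15.5. Over all genes those fits called 0 to 504 from E15.5 to E16.5 and 2320 to 5816 from E14.5 to E15.5. The cause of these changes was not tested.

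Some differences from E13.5 to P0 changed sign, 3 of members that had not passed and 2 of called decreases. Per3 was 0.01 with DESeq2 or its size factors, 0.05 with upper-quartile factors, 0.07 with a mean of at least 1 CPM, 0.02 with 6 libraries and 0.25 with the offsets (-0.15 to 0.27 without 1 library). Dbp was 0.04, 0.05 and 0.06 with upper-quartile factors, a mean of at least 1 CPM and thinning (-0.12 to 0.06 without 1 library). Clock was 0.72 with the offsets (-0.52 to 0.10 without 1 library), and the called decreases of Csnk1a1 and Btrc became 0.05 and 0.07 with the offsets. Ranking by Spearman's rho kept 1 of the 5 genes most like each of Dbp, Nr1d1 and Arntl. Upper-quartile factors moved the median of all genes from E14.5 to E15.5 from 0.03 to 0.16. Over all genes, DESeq2 called 956, 2047 and 646 genes where edgeR called 2, 312 and 78 (E14.5, E16.5 and P0 against the stage before).

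Whether replicate numbers in the labels pair the libraries was not tested, since differently numbered pairs were not compared. Of 30 same-numbered pairs across stages, 9 had a correlation of deviations over 0.1 (-0.303 to 0.548). Over all genes, the replicate number as a block changed the calls from 2 to 135 (E14.5 against E13.5) and from 78 to 35 (P0 against E16.5). With the replicate number as a block, members called stayed at 0, 1, 1, 1, 6 and 6 over the 5 contrasts and all stages, and further clock genes numbered 0, 8, 2, 0, 17 and 16. That block gave 4 glucocorticoid response and 3 immediate early genes from E16.5 to P0, in place of 6 and 6.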
